A study of Homo sapiens with 60 samples.

Results

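The mitochondrial ribosomal protein genes were taken as every protein-coding gene whose symbol begins with MRPL or MRPS followed by a number. The rule found 78 genes among 60675 in the count table, 49 named MRPL and 29 named MRPS, and used no measured value. All 78 passed the filter on low counts, which left 16644 genes for testing.

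The mitochondrial ribosome, or mitoribosome, translates the few mRNAs that mitochondrial DNA encodes, all for subunits of the respiratory chain and the ATP synthase. Its rRNAs come from mitochondrial DNA, whereas its proteins are encoded in the nucleus, made in the cytosol and imported. MRPL names stand for the large subunit, which joins amino acids, and MRPS names for the small subunit, which reads the mRNA. A few names mislead: the products of MRPS30 and MRPS18A sit in the large subunit, and MRPS36 is known as a part of the 2-oxoglutarate dehydrogenase complex.

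HepG2 cells, a human hepatocellular carcinoma line, were exposed for 24 h to herbal water extracts and profiled by mRNA sequencing, to record how each extract changes the transcriptome. Each extract was given at 20, 100 and 500 µg/mL in 3 libraries per dose, and the vehicle had 3 libraries, labelled 0.1% DMSO where the series' design text gives a higher concentration. The single herbs were Menthae Herba, the aerial parts of mint, and Saposhnikoviae Radix, a root, and the decoctions of several herbs were Okbyeongpung-san, Soyo-san, Saengmaek-san and Guibi-tang. Soshiho-tang had 1 library per dose, so it has values here and no test. The labels do not say that replicates came from separate cultures, so a p-value here covers only how much these libraries vary, and that may be technical.

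The 60 libraries held between 20446542 and 32386486 counts, with a median of 25862356, and levels are given as counts scaled to library size (CPM). The 10 hepatocyte markers summed to between 37802.5 and 51188.6 CPM in every library. Markers of other cells were low. The 4 leukocyte markers summed to between 31.2 and 51.5 CPM, of which CD68 made 30.5 to 51.1 CPM. PTPRC was at 0 in 57 libraries and CD3E in 59. The 4 fibroblast and stellate markers summed to between 8.23 and 25.6 CPM. Of these, PDGFRB made 7.29 to 24.7 CPM, COL1A1 was counted in every library, and DCN was at 0 in 58. The 3 endothelial markers summed to between 3.84 and 6.06 CPM, and the 3 neural markers to between 2.7 and 4.44 CPM. SYP made 2.62 to 4.4 CPM of the neural sum, and SOX10 was at 0 in 44 libraries. The libraries fell into 2 sets by the nuclear RNA MALAT1, 31 between 174.6 and 282.6 CPM and 29 between 387 and 552.5 CPM. Vehicle, Menthae Herba and Saposhnikoviae Radix lay wholly in the lower set, and Soyo-san and Okbyeongpung-san wholly in the upper one, so for comparisons of these 2 decoctions with vehicle the set and the treatment cannot be told apart by the groups alone. Vehicle replicate 1 stood apart from the other 2 vehicle libraries, with a chi-square per degree of freedom of 16.2 and 13.3 against them, where those 2 differed by 3.09. Menthae Herba 20 replicate 3 stood apart as much, at 15.7 and 12.2 where the other 2 differed by 3.64, and replicates 1 and 2 of Menthae Herba at 500 µg/mL differed by 15.2.

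Levels of the 78 mRNAs spanned a wide range. The mean over the 60 libraries ran from 10.1 to 162.5 CPM with a median of 40. Per kilobase of transcript, the highest were MRPL12 at 115.2 CPM per kb, MRPL37 at 109.6 and MRPS27 at 81.3. MRPL12 forms the stalk that recruits translation factors and also binds the mitochondrial RNA polymerase; MRPL37 and MRPS27 are proteins that bacterial ribosomes lack. The lowest were MRPL22, a protein of the peptide exit tunnel, at 6.68 CPM per kb, MRPS11 at 6.91 and MRPS14 at 7.59. The median was 33.2 CPM per kb for MRPL genes and 27.2 for MRPS genes. These levels depend on how the authors' quantification shared reads among copies: 79 pseudogenes carry MRPL or MRPS names, and 13 of the 78 genes overlap a protein-coding gene on the same strand. Fractional counts, which arise where a read fits more than one gene, occurred in 98.3% of libraries for MRPS6, MRPS11 and MRPS18A, in 100% for MRPS18C, MRPS25, MRPS2 and MRPL4, and in none for 37 genes, MRPL18, MRPS26, MRPL36 and MRPL11 among them.

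Across treatments the levels moved little. The difference between the highest and the lowest of the 19 group means had a median of 0.28 on the log2 scale and ran from 0.15 for MRPS18B to 0.53 for MRPS6. It was under 0.5 for 74 of 78 genes (94.9%), compared with 82.8% of the 9306 genes at least as abundant. The coefficient of variation within a group had a median of 5.58% for the 78 genes and 4.57% for those 9306. Menthae Herba at 500 µg/mL held the lowest mean of 39 of the 78 genes (50%), where it held the lowest mean of 28.7% of the abundant genes. It held the highest mean of 1 gene, MRPS6 (1.28%, against 23.8% of the abundant genes).

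The summed level of the 78 mRNAs was 3481.2, 3629.4 and 3569.8 CPM in the vehicle libraries. In Menthae Herba it was 3693.3, 3615.3 and 3538.4 CPM at 20 µg/mL and 3300.2, 3387.6 and 3259.9 CPM at 500 µg/mL. The libraries at 500 µg/mL all lay below those at 20 µg/mL and below vehicle. In Saposhnikoviae Radix at 500 µg/mL, 2 libraries were as low, at 3340.1 and 3383.6 CPM, and the third stood at 3737 CPM. In bulk RNA, fewer cells of a kind and less RNA per cell cannot be told apart. The highest group was Okbyeongpung-san at 500 µg/mL, at 3734.8 ± 47.3 CPM (SD, n = 3). The median sum was 3599.2 CPM in the lower MALAT1 set and 3595.7 CPM in the upper set.

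**Figure D1:**
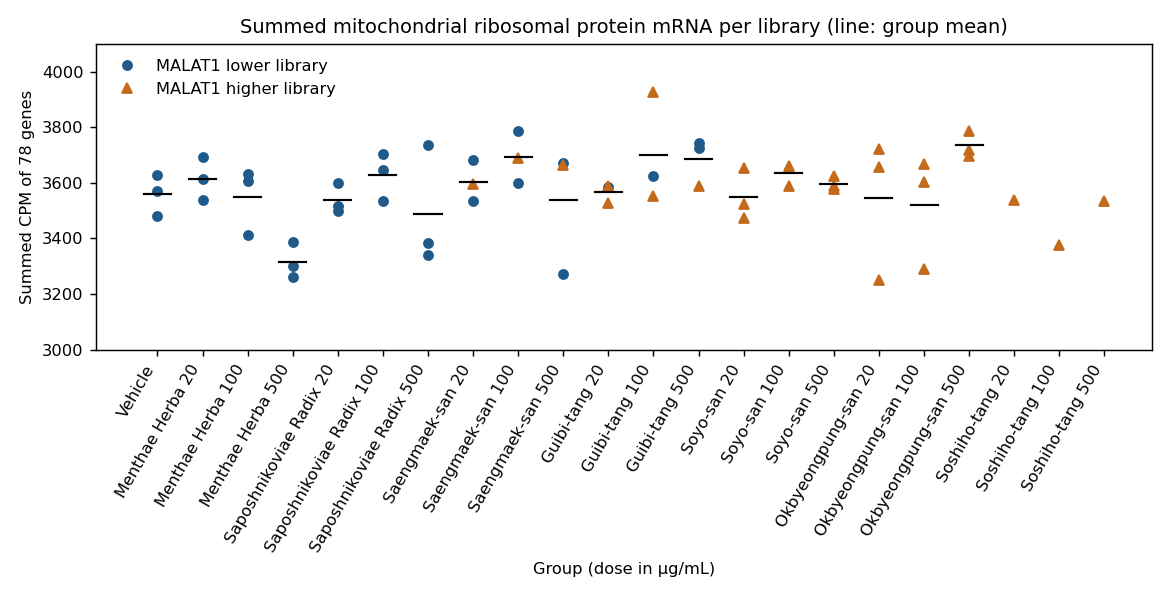
Summed CPM of the 78 genes in each of the 60 libraries (y axis, which does not start at 0), by group and dose in µg/mL (x axis). Circles and triangles are libraries of the lower and upper MALAT1 set, and lines are means of 3. Menthae Herba at 500 µg/mL has the lowest mean, 3315.9 CPM, and low libraries occur elsewhere, such as the one at 3252.3 CPM in Okbyeongpung-san at 20 µg/mL and those at 3340.1 and 3383.6 CPM in Saposhnikoviae Radix at 500 µg/mL.

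Raising Menthae Herba from 20 to 500 µg/mL lowered a set of mitoribosome mRNAs by modest amounts. With edgeR's quasi-likelihood test and Benjamini-Hochberg adjustment over all tested genes, 17 of the 78 genes fell and 1 rose at an adjusted p under 0.05. This extract changed 32.1% of all tested genes, 15.8% downward and 16.3% upward, so the share of the 78 called lower, 21.8%, was not far above the background, whereas the share called higher was 1.28%. The estimate was negative for 67 of 78 genes, with a median of -0.11 against -0.01 over all tested genes. By name, 9 of 49 MRPL and 8 of 29 MRPS genes fell, the latter with MRPS18A of the large subunit among them. The standard error of a single gene had a median of 0.08 on the log2 scale, and the smallest change called was 0.11.

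**Figure D2:**
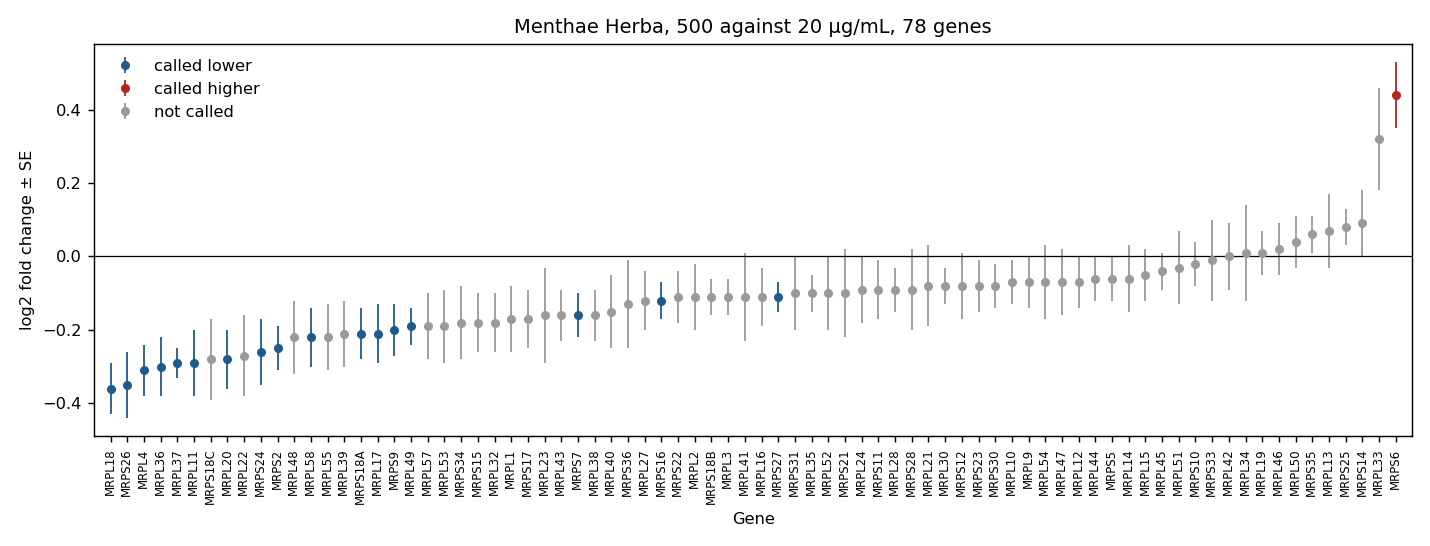
Log2 fold change of each of the 78 genes in Menthae Herba at 500 against 20 µg/mL (y axis, bars are standard errors), ordered by size (x axis). The 17 genes called lower are blue, from MRPL18 at -0.36 to MRPS27 at -0.11, and MRPS6 at 0.44 is red; most other genes lie below 0 without passing the test.

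MRPL18, a large-subunit protein whose bacterial counterpart binds the smallest ribosomal RNA, fell the most. Its level was 57.9, 59.3 and 55.5 CPM at 20 µg/mL, 57.9, 54.3 and 52.1 CPM at 100 µg/mL, and 44.4, 44.7 and 45.3 CPM at 500 µg/mL. Vehicle held 61.1, 64.4 and 60.6 CPM. The 3 libraries at 500 µg/mL lay below every other library of the study, of which the lowest outside vehicle and Menthae Herba was at 47.6 CPM. The log2 fold change was -0.36 ± 0.07 (SE, adjusted p = 1.1e-04) against 20 µg/mL and -0.47 ± 0.07 (adjusted p = 7.5e-07) against vehicle. The gene lies on chromosome 6, positions 159789812 to 159798436 (GRCh38, GENCODE v29, plus strand).

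MRPL37 gave the lowest adjusted p. It held 166.9, 161.2 and 177.5 CPM at 20 µg/mL and 134.8, 143.1 and 136.7 CPM at 500 µg/mL, with 177.9, 181.3 and 175.3 CPM in vehicle. The 3 libraries at 500 µg/mL were again the lowest of the study, and the other extracts reached down to 146.8 CPM. The log2 fold change was -0.29 ± 0.04 (adjusted p = 3.4e-07) against 20 µg/mL and -0.37 ± 0.04 (adjusted p = 5.3e-10) against vehicle.

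MRPS26, a small-subunit protein without a bacterial counterpart, behaved differently toward vehicle. Its level was 83.4, 76.8 and 80.5 CPM at 20 µg/mL and 63.7, 64.0 and 60.5 CPM at 500 µg/mL, a log2 fold change of -0.35 ± 0.09 (adjusted p = 0.001). Vehicle held 52.1, 66.7 and 67.1 CPM, so the libraries at 500 µg/mL overlapped vehicle (log2 fold change 0.02 ± 0.09, adjusted p = 0.882) and those at 20 µg/mL lay above it.

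MRPL4, which lines the peptide exit tunnel, held 98.0, 91.4 and 111.4 CPM at 20 µg/mL and 84.4, 83.8 and 74.0 CPM at 500 µg/mL (log2 fold change -0.31 ± 0.07, adjusted p = 3.7e-04). MRPL36, a small protein with a bacterial counterpart, held 25.9, 24.8 and 25.5 CPM at 20 µg/mL and 20.3, 21.1 and 20.6 CPM at 500 µg/mL (-0.30 ± 0.08, adjusted p = 0.004). MRPL11, at the base of the stalk, held 54.4, 52.6 and 56.5 CPM against 41.3, 44.9 and 47.3 CPM (-0.29 ± 0.09, adjusted p = 0.0072). In none of these 3 genes did the groups overlap, which describes genes already called on these libraries and adds no support. MRPL11 lost its call without replicate 1 at 500 µg/mL (-0.24, adjusted p = 0.0583).

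The other genes that fell were MRPL20, MRPS24, MRPS2, MRPL58, MRPL17, MRPS18A, MRPS9, MRPL49, MRPS7, MRPS16 and MRPS27, by between 0.28 and 0.11 on the log2 scale. MRPL58 is a release factor that frees stalled peptides from the ribosome, and it held 22.2, 20.6 and 20.4 CPM at 20 µg/mL against 18.7, 18.3 and 17.1 CPM at 500 µg/mL. MRPL58 lost its call without Menthae Herba 20 replicate 1 (-0.18, adjusted p = 0.122) or Menthae Herba 500 replicate 2 (-0.23, adjusted p = 0.0513) or 3 (-0.18, adjusted p = 0.133), and MRPL20 without the last of these (-0.23, adjusted p = 0.0528). MRPS7 was the exception among the 17 in that its groups overlapped. The 17 were called on these libraries, and no share over all tested genes is given, so this is description only. The calls of 8 genes, of MRPL18, MRPL36, MRPL37, MRPL4, MRPL49, MRPS2, MRPS26 and MRPS6, held in each of 13 refits, which changed the scaling, filter, tool or covariates or left out 1 of the 6 libraries. Without Menthae Herba 500 replicate 3 the number called dropped from 18 to 10. Without Menthae Herba 20 replicate 3, which had the highest levels of MRPL37, MRPL4 and MRPS18A at that dose, 18 genes were called, 13 of them shared with the 18 above.

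MRPS6, a small-subunit protein that binds the small rRNA, was the only one of the 78 called higher. Its level was 13.1, 14.5 and 12.7 CPM at 20 µg/mL, 14.7, 14.5 and 12.5 CPM at 100 µg/mL, and 16.9, 19.6 and 18.1 CPM at 500 µg/mL, with 13.3, 12.7 and 11.9 CPM in vehicle. The 3 libraries at 500 µg/mL exceeded all others, which reached 16.2 CPM. The log2 fold change was 0.44 ± 0.09 (adjusted p = 5.9e-05) against 20 µg/mL and 0.52 ± 0.09 (adjusted p = 2.5e-06) against vehicle. The gene, on chromosome 21, positions 34073224 to 34143034, overlaps SLC5A3, an inositol transporter gene on the same strand. Its counts were fractional in 98.3% of libraries, so reads may be split between the pair. SLC5A3 itself stood at 29.8, 29 and 24.7 CPM at 20 µg/mL and at 48.9, 48.2 and 54.6 CPM at 500 µg/mL, a log2 fold change of 0.86 ± 0.09 (adjusted p = 4.4e-11), and its part in the value for MRPS6 was not tested.

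**Figure D3:**
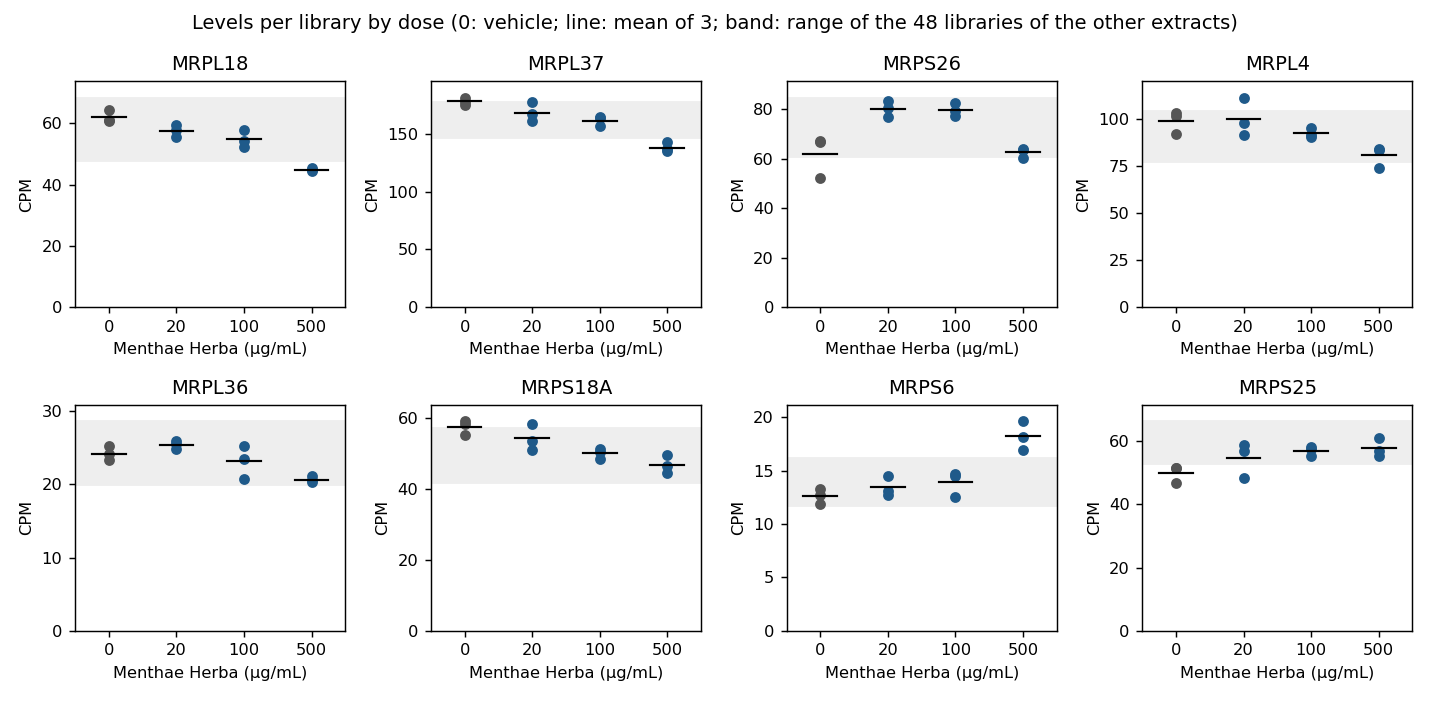
CPM of 8 genes per library (y axis, from 0) in vehicle and in Menthae Herba at 20, 100 and 500 µg/mL (x axis). Lines are means of 3 libraries, and grey bands span the 48 libraries of the other extracts. MRPL18 and MRPL37 at 500 µg/mL lie under the band, MRPS6 lies above it, and vehicle lies under it for MRPS25.

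Stretches of promoter are shown for 4 genes that fell in Menthae Herba. Their printed bases hold no annotated transcript of the gene, and other genes that fell may meet this too. The ETS motif is more frequent among these 4 than among the 17 genes that fell, where 23.5% held it. Sequences are from RefSeq (GRCh38.p14), read 5′ to 3′ on the gene's strand, and capitals mark the ETS motif CCGGAAG or the SP motif CCCGCCC.
MRPL18: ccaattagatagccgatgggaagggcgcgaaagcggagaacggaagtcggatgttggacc
MRPL20: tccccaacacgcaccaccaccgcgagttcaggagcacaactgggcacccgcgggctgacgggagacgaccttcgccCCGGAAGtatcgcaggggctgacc
MRPL58: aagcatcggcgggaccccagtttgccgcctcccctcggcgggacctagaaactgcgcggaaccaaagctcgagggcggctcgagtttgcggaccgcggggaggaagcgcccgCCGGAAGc
MRPS18A: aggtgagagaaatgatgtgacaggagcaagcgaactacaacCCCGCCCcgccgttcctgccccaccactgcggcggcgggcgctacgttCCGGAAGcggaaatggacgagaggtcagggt
They lie at chr6:159789752-159789811 (plus strand), chr1:1407314-1407413 (minus), chr17:75012550-75012669 (plus) and chr6:43687792-43687911 (minus). MRPL18, the gene that fell most, has neither motif in the 60 bases shown, and the longer window searched holds an SP motif.

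The 250 bases before the start were searched on both strands in the 69 of 78 genes with an entry. MRPL2, MRPL10, MRPL13, MRPL15, MRPL21, MRPL23, MRPL35, MRPS28 and MRPS36 had none. The ETS motif CCGGAAG, read by factors such as GABPA, was present in 33.3% of them and in 8.48% of all 34943 promoters. The NRF1 motif GCGCANGCG was present in 18.8% against 6.5%, the YY1 motif AAGATGGC in 7.25% against 1.36%, the SP motif CCCGCCC in 47.8% against 31.5%, and the E-box CACGTG in 8.7% against 6.32%. Of the 17 genes lower in Menthae Herba at 500 against 20 µg/mL, 23.5% held the ETS motif, 29.4% the NRF1 motif, 5.88% the YY1 motif, 58.8% the SP motif and 17.6% the E-box. The 34943 promoters outnumber the 19680 protein-coding genes, so this background was not limited to protein-coding genes with a promoter each, or to expressed genes. The mitoribosome genes are all protein-coding and passed the filter on low counts. How far this difference sets the gaps in motif shares was not tested. A match is a description of the letters and not a bound site.

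The change in Menthae Herba was then compared with the mean change of the other 5 extracts over the same doses, in one model. Menthae Herba was set apart because earlier results of these data showed it with the most changed genes. The difference was past the threshold for 15 of the 78 genes, 14 lower and 1 higher. Of all tested genes 23.9% differed (11.8% lower and 12.1% higher). The share of the 78 was thus below the background in all, above it for lower genes and below it for higher ones. MRPS26 (-0.38 ± 0.09, adjusted p = 0.002), MRPL36 (-0.37 ± 0.09, adjusted p = 0.0018), MRPL18 (-0.36 ± 0.08, adjusted p = 7e-04), MRPL4 (-0.34 ± 0.08, adjusted p = 7.2e-04) and MRPL37 (-0.31 ± 0.05, adjusted p = 9.6e-07) led the lower ones, and MRPS6 (0.40 ± 0.10, adjusted p = 0.0013) was the higher one. Without Menthae Herba 500 replicate 3 the count was 9.

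None of the 78 genes was called between 500 and 20 µg/mL in any of the other 5 extracts by edgeR or by DESeq2. The background differed widely among them, with 0.397% of all tested genes called in Saposhnikoviae Radix, 1.96% in Saengmaek-san, 8.12% in Guibi-tang, 7.58% in Soyo-san and 0.024% in Okbyeongpung-san. At an unadjusted p under 0.05, edgeR gave 0, 2, 7, 2 and 6 of the 78 genes in that order. The share of all tested genes at that threshold is not given here, so these counts are not read as a result. The genes of lowest adjusted p were MRPL48 in Saengmaek-san (-0.24 ± 0.10, adjusted p = 0.271), MRPS30 in Guibi-tang (0.15 ± 0.06, adjusted p = 0.123) and MRPL33 in Soyo-san (0.31 ± 0.14, adjusted p = 0.231).

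The medians in those extracts were small, from -0.04 in Saengmaek-san to 0.08 in Okbyeongpung-san. In Okbyeongpung-san 74 of the 78 estimates were positive. One library moves with that: replicate 3 at 20 µg/mL had a summed level of 3252.3 CPM, where the other 2 had 3721.9 and 3658.2 CPM and the libraries at 500 µg/mL 3718.3, 3698.0 and 3788.2 CPM. The cytosolic ribosomal proteins were low in the same library, at 26469.9 CPM in sum against 34017.0 and 33613.4 CPM. Its part in the direction was not tested.

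**Figure D4:**
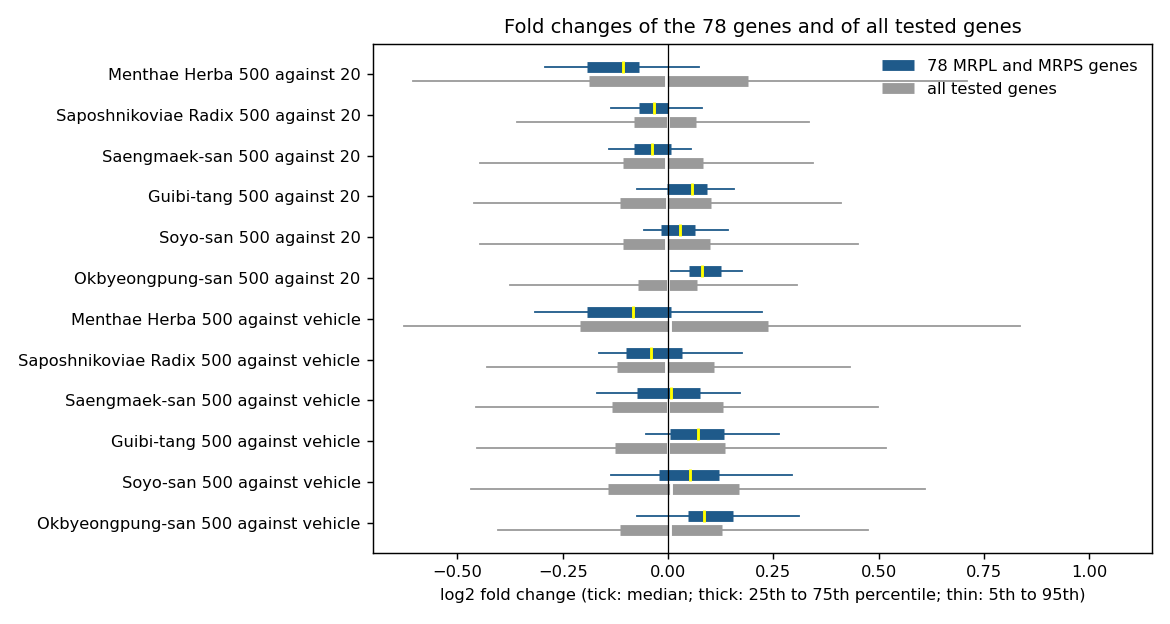
Log2 fold changes (x axis) of the 78 genes (blue) and of all tested genes (grey) in each of 12 comparisons (y axis). Ticks are medians, thick bars run from the 25th to the 75th percentile and thin lines from the 5th to the 95th. The blue bars are narrower than the grey ones in each comparison, and the median is lowest in Menthae Herba.

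Against vehicle, Menthae Herba at 500 µg/mL lowered 22 of the 78 genes and raised 3, where 39.8% of all tested genes were called, 20% lower and 19.8% higher. The share of the 78 was below the background in all, though above it for lower genes. Of the 25 calls, 12 held in each of 12 refits, those of MRPL3, MRPL4, MRPL11, MRPL18, MRPL20, MRPL37, MRPS2, MRPS6, MRPS17, MRPS18A, MRPS22 and MRPS25. The others were lost in at least 1 refit. The genes that fell were 13 MRPL and 9 MRPS, and the estimate was negative for 56 of 78 genes. After MRPL18 the largest falls were in MRPS18C (-0.39 ± 0.11, adjusted p = 0.0048), MRPL37, MRPL20 (-0.33 ± 0.08, adjusted p = 6.8e-04) and MRPL22 (-0.31 ± 0.11, adjusted p = 0.0185). MRPL20, whose bacterial counterpart is needed to assemble the large subunit, held 31.3, 30.9 and 32.3 CPM in vehicle and 26.1, 25.7 and 23.5 CPM at 500 µg/mL. MRPL22 held 19.6, 22.4 and 21.5 CPM in vehicle and 16.4, 18.0 and 16.7 CPM at 500 µg/mL. Neither gene's groups overlapped, again in the libraries that gave the calls. The genes that rose were MRPS6, MRPL23 and MRPS25, and MRPL23 lost its call without vehicle replicate 1 (0.23, adjusted p = 0.204) or without replicate 1 (0.35, adjusted p = 0.0623) or 2 (0.34, adjusted p = 0.0634) at 500 µg/mL. MRPS18C lost it without vehicle replicate 1 (-0.31, adjusted p = 0.0573). MRPL22 lost it without vehicle replicate 2 (-0.27, adjusted p = 0.0808) or 3 (-0.30, adjusted p = 0.0564), and without replicate 1 (-0.29, adjusted p = 0.0684) or 3 (-0.29, adjusted p = 0.061) at 500 µg/mL. All comparisons with vehicle share its 3 libraries, so an unusual vehicle level enters each of them. The sample code began with B1 for vehicle and with 5, 6 or 7 for the tested extracts. DMSO is labelled for vehicle only. Code, labelled solvent and treatment therefore cannot be told apart in comparisons with vehicle.

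Fewer genes differed from vehicle in the other extracts at 500 µg/mL. In Saposhnikoviae Radix 1 gene was called (5.8% of all tested genes), in Saengmaek-san 5 (12.6%), in Guibi-tang 3 (13.4%), in Soyo-san 9 (21.5%) and in Okbyeongpung-san 4 (9.11%). Each count was below the share of all genes called. The largest rises were in MRPL33 (0.43 ± 0.14, adjusted p = 0.0288), MRPL54 (0.37 ± 0.10, adjusted p = 0.0041) and MRPS36 (0.37 ± 0.13, adjusted p = 0.0298) in Soyo-san, and in MRPL54 (0.40 ± 0.10, adjusted p = 0.0063), MRPS36 (0.39 ± 0.12, adjusted p = 0.0393) and MRPS23 (0.25 ± 0.07, adjusted p = 0.0132) in Okbyeongpung-san. With the MALAT1 set as a term in the model, MRPL33 in Soyo-san (0.26, adjusted p = 0.298) and MRPS36 in Soyo-san (0.36, adjusted p = 0.0823) and Okbyeongpung-san (0.38, adjusted p = 0.0865) were not called. Several of these calls were lost on leaving out any 1 of several libraries, with the sign unchanged. MRPL33 in Soyo-san was not called without vehicle replicate 1 or 2 or without replicate 1, 2 or 3 of Soyo-san (0.36 to 0.45, adjusted p = 0.0528 to 0.12). MRPS36 in Soyo-san was not called without vehicle replicate 2 or 3 or Soyo-san replicate 1 or 3 (0.32 to 0.37, adjusted p = 0.0645 to 0.114). In Okbyeongpung-san, MRPS36 was not called without vehicle replicate 1, 2 or 3 or replicate 2 or 3 of the extract (0.31 to 0.42, adjusted p = 0.0601 to 0.193), and MRPS23 was not without vehicle replicate 1 or replicate 2 or 3 of the extract (0.20 to 0.24, adjusted p = 0.0522 to 0.0925). MRPS6 was called higher in Guibi-tang (0.28 ± 0.09, adjusted p = 0.0239), but not without vehicle replicate 2 or 3 or Guibi-tang replicate 1 (0.25 to 0.28, adjusted p = 0.0613 to 0.107). MRPS26 was called higher in Saengmaek-san (0.25 ± 0.09, adjusted p = 0.0494), but not without vehicle replicate 1 or any 1 of the 3 Saengmaek-san libraries (0.14 to 0.27, adjusted p = 0.0667 to 0.366).

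MRPS25, a small-subunit protein without a bacterial counterpart, exceeded vehicle in each of the 6 extracts at 500 µg/mL. Vehicle held 46.9, 51.5 and 51.4 CPM, and the 48 libraries of the other extracts ran from 52.9 to 66.2 CPM with a median of 57 CPM, so no library of theirs reached down to vehicle. One library of Menthae Herba at 20 µg/mL, at 48.2 CPM, did. Menthae Herba at 500 µg/mL held 60.9, 55.2 and 57 CPM. The log2 fold change was 0.28 ± 0.05 in Soyo-san (adjusted p = 3.5e-05), 0.23 ± 0.05 in Okbyeongpung-san (adjusted p = 0.0031; 0.18, adjusted p = 0.0503 without its replicate 2), 0.22 ± 0.05 in Guibi-tang (adjusted p = 0.0018), 0.21 ± 0.05 in both Menthae Herba (adjusted p = 7.3e-04) and Saposhnikoviae Radix (adjusted p = 0.0073), and 0.17 ± 0.05 in Saengmaek-san (adjusted p = 0.0173). Without vehicle replicate 1, the calls in Saposhnikoviae Radix (0.17, adjusted p = 0.0968) and Saengmaek-san (0.13, adjusted p = 0.14) were lost, and the latter also without Saengmaek-san replicate 1 (0.17, adjusted p = 0.0501). Fitted with only the groups compared, both calls were lost too (adjusted p = 0.0944 and 0.15), and that in Saengmaek-san was lost with no filter (adjusted p = 0.124).

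MRPL37, MRPS18A and MRPL49 stood on the other side, with vehicle above most treated libraries. MRPL37 was lower than vehicle in Saengmaek-san (-0.17 ± 0.04, adjusted p = 0.0055) and Soyo-san (-0.21 ± 0.04, adjusted p = 2.3e-04) as well as in Menthae Herba. MRPS18A held 55, 58.2 and 58.9 CPM in vehicle, and the 48 libraries of the other extracts ran from 41.6 to 57.1 CPM. MRPS18A was called lower in Menthae Herba (-0.30 ± 0.07, adjusted p = 2.5e-04), Saengmaek-san (-0.24 ± 0.07, adjusted p = 0.0114) and Soyo-san (-0.20 ± 0.07, adjusted p = 0.0247). MRPL49, a large-subunit protein without a bacterial counterpart, was called lower in Menthae Herba (-0.16 ± 0.05, adjusted p = 0.008; lost without vehicle replicate 2 at adjusted p = 0.0521 or without Menthae Herba replicate 1 at adjusted p = 0.073), Saengmaek-san (-0.16 ± 0.05, adjusted p = 0.0187), Guibi-tang (-0.15 ± 0.05, adjusted p = 0.0354) and Soyo-san (-0.17 ± 0.05, adjusted p = 0.0079). With the MALAT1 set in the model the Soyo-san calls of MRPS18A (-0.12, adjusted p = 0.271) and MRPL49 (-0.10, adjusted p = 0.218) and the Guibi-tang call of MRPL49 (-0.12, adjusted p = 0.0601) were lost. Without Saengmaek-san replicate 1 no call remained there for MRPL37 (-0.14, adjusted p = 0.0562), MRPS18A (-0.18, adjusted p = 0.113) or MRPL49 (-0.13, adjusted p = 0.127). MRPS18A also lost its call in Saengmaek-san without vehicle replicate 3 (-0.21, adjusted p = 0.0599), and in Soyo-san without vehicle replicate 2 or 3 or Soyo-san replicate 1 or 2 (-0.19 to -0.18, adjusted p = 0.0754 to 0.096). MRPL49 lost it without vehicle replicate 2 in Saengmaek-san (-0.14, adjusted p = 0.098), Guibi-tang (-0.12, adjusted p = 0.154) and Soyo-san (-0.15, adjusted p = 0.0548), without vehicle replicate 3 in Saengmaek-san (-0.15, adjusted p = 0.0688) and Guibi-tang (-0.14, adjusted p = 0.102), and without Guibi-tang replicate 2 or 3 or Soyo-san replicate 1 (-0.15 to -0.10, adjusted p = 0.0536 to 0.228).

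**Figure D5:**
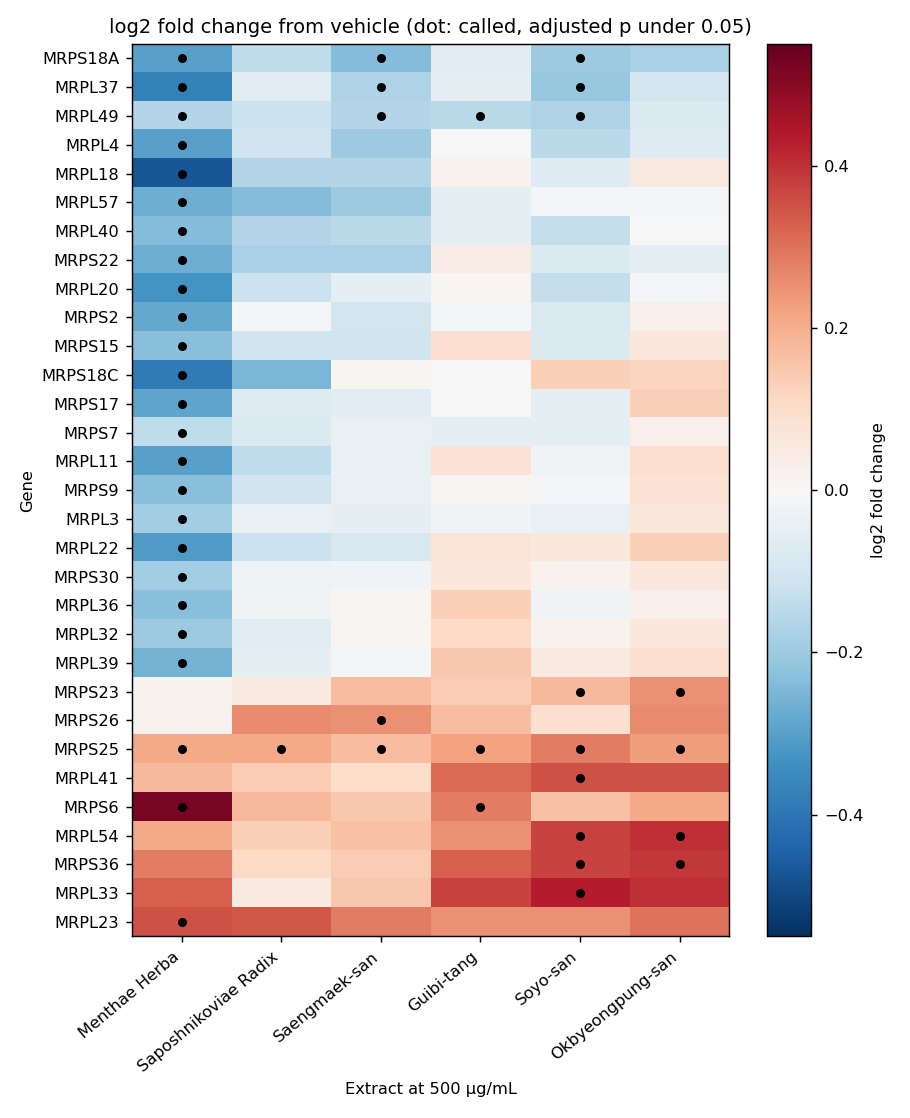
Log2 fold change from vehicle (colour) of the 31 genes called in at least 1 extract at 500 µg/mL (rows, ordered by the mean over extracts), for 6 extracts (columns). Dots mark calls at an adjusted p under 0.05. The Menthae Herba column carries 25 dots, and only the row of MRPS25 has a dot in all 6 columns.

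The mean of the 6 extracts was also set against vehicle at each dose. At 20 µg/mL 4 genes were higher and 2 lower, where 10.9% of all tested genes were called (4.83% higher, 6.03% lower). At 100 µg/mL 8 were higher and 2 lower, where 14.3% were called (6.37% higher, 7.94% lower). At 500 µg/mL 5 were higher and 3 lower, where 23.7% were called (11% higher, 12.7% lower). MRPS25 was higher at each dose, by 0.16, 0.19 and 0.22 on the log2 scale (adjusted p = 0.0042, 5.1e-04 and 2.9e-05), and without vehicle replicate 1 it was not called at 20 µg/mL (0.12, adjusted p = 0.146). MRPL37 was lower by estimates of -0.13, -0.12 and -0.16 (adjusted p = 0.0053, 0.0058 and 1.6e-04), and MRPS18A by -0.20, -0.19 and -0.18 (adjusted p = 0.0066, 0.0057 and 0.0042). These differences were present at the lowest dose. Treatment cannot be told apart there from the sample code and labelled solvent that set vehicle apart. Without vehicle replicate 2, MRPL37 was not called at 20 (-0.12, adjusted p = 0.0555) and 100 µg/mL (-0.11, adjusted p = 0.0583), and without vehicle replicate 3, MRPS18A was not called at 20 (-0.18, adjusted p = 0.0609), 100 (-0.17, adjusted p = 0.0609) and 500 µg/mL (-0.16, adjusted p = 0.0523).

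MRPL23, a protein at the exit of the peptide tunnel, gave 0.30, 0.33 and 0.30 at 20, 100 and 500 µg/mL (adjusted p = 0.0444, 0.0232 and 0.0283), but the value leaned on 1 library. Vehicle replicate 1 held 17.9 CPM of MRPL23 where the other 2 held 24.4 and 22.0 CPM, and without it no call remained (0.18, 0.21 and 0.18, adjusted p = 0.426, 0.309 and 0.334). Without vehicle replicate 3 the estimates were 0.32, 0.35 and 0.32 and were not called either (adjusted p = 0.0972, 0.0595 and 0.0622), and at 20 µg/mL the call was also lost without any of 9 treated libraries (adjusted p = 0.0515 to 0.0581). MRPS26 was alike, with calls at 20 µg/mL (0.21 ± 0.07, adjusted p = 0.0315) and 100 µg/mL (0.26 ± 0.07, adjusted p = 0.006) that were lost without that library (0.10 and 0.15, adjusted p = 0.513 and 0.241). MRPL54 held 8.68, 7.95 and 9.19 CPM in vehicle and a median of 10.2 CPM in the 48 libraries of the other extracts. Its estimates were 0.23, 0.27 and 0.25 (adjusted p = 0.0478, 0.0133 and 0.0122), and without vehicle replicate 1 they stayed at 0.23, 0.27 and 0.26 with adjusted p of 0.16, 0.065 and 0.0501. Without vehicle replicate 2 they were 0.17, 0.21 and 0.20 (adjusted p = 0.277, 0.135 and 0.13). The call of MRPL54 at 20 µg/mL was also lost with RLE scaling (adjusted p = 0.0508), no filter (adjusted p = 0.0757) and the MALAT1 set as a term (adjusted p = 0.055), without vehicle replicate 3 (adjusted p = 0.0554), and without single libraries of each of the 6 extracts (adjusted p = 0.0511 to 0.0648). MRPS36 was called at 500 µg/mL (0.27 ± 0.10, adjusted p = 0.0394) but not without vehicle replicate 1 (0.31, adjusted p = 0.0641), 2 (0.23, adjusted p = 0.192) or 3 (0.27, adjusted p = 0.101).

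Several genes of known function were looked at whatever their result. In Menthae Herba at 500 against 20 µg/mL, MRPL12 gave -0.07 ± 0.07 (adjusted p = 0.49), MRPS12, a protein of the decoding site, -0.08 ± 0.09 (adjusted p = 0.564), and MRPL3, near the catalytic centre, -0.11 ± 0.05 (adjusted p = 0.071). MRPL44, which resembles an RNase, gave -0.06 ± 0.06 (adjusted p = 0.498), MRPL41 -0.11 ± 0.12 (adjusted p = 0.533) and MRPS30 -0.08 ± 0.06 (adjusted p = 0.354). None of these 6 passed the test there, although MRPL3 (-0.19 ± 0.05, adjusted p = 6.4e-04) and MRPS30 (-0.19 ± 0.06, adjusted p = 0.0064) were lower than vehicle, the latter not without vehicle replicate 1 (-0.15, adjusted p = 0.0643) or Menthae Herba 500 replicate 3 (-0.16, adjusted p = 0.0554). The 3 paralogs MRPS18A, MRPS18B and MRPS18C had mean levels of 50.3, 89.9 and 16.4 CPM over the 60 libraries, and counts were fractional for the first and the last only. Their estimates in the same comparison were -0.21 ± 0.07 (adjusted p = 0.0096), -0.11 ± 0.05 (adjusted p = 0.0795) and -0.28 ± 0.11 (adjusted p = 0.0601). MRPS18A lost its call without Menthae Herba 500 replicate 1 (-0.18, adjusted p = 0.0693) or Menthae Herba 20 replicate 3 (-0.15, adjusted p = 0.12).

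Other genes of mitochondrial translation were read in the same comparison, from lists chosen with earlier results known. All counts stand beside the 32.1% of tested genes called (15.8% lower, 16.3% higher). Of 16 translation factors, 1 was higher and 2 lower at 500 against 20 µg/mL: MTRF1L, a release factor (0.19 ± 0.06, adjusted p = 0.0058), TACO1, an activator of cytochrome oxidase translation (-0.19 ± 0.07, adjusted p = 0.0241), and OXA1L, a membrane insertase (-0.11 ± 0.04, adjusted p = 0.0472). Of 26 assembly and rRNA-modifying factors, 6 were lower and none higher, with a median of -0.05, so fewer were called in all than the share of tested genes would give. MTERF4, which brings an rRNA methyltransferase to the large subunit, held 46, 47.9 and 49.3 CPM at 20 µg/mL and 33.7, 31.1 and 30.4 CPM at 500 µg/mL (-0.59 ± 0.06, adjusted p = 2.8e-12). MPV17L2, an assembly factor, gave -0.38 ± 0.07 (adjusted p = 3.4e-05) and DDX28, a helicase, -0.25 ± 0.07 (adjusted p = 0.0065). Against vehicle, MTERF4 (-0.66 ± 0.06, adjusted p = 4.1e-14) and MPV17L2 (-0.32 ± 0.07, adjusted p = 3.7e-04) were lower as well. None of the 5 mitoribosome proteins under other symbols was called against 20 µg/mL by edgeR, and 2 had an unadjusted p under 0.05. At least the 32.1% of tested genes called passed that looser threshold.

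Of 13 regulators of mitochondrial gene expression, 2 rose and 4 fell in the same comparison, where 32.1% of tested genes were called. PPARGC1A, a coactivator of mitochondrial biogenesis, held 17.9, 20.4 and 21.6 CPM at 20 µg/mL and 32, 35.1 and 35.1 CPM at 500 µg/mL (0.77 ± 0.08, adjusted p = 2.7e-11). Its relative PPRC1 went the other way, with 128.0, 123.1 and 133.8 CPM against 106.4, 100.6 and 100.9 CPM (-0.32 ± 0.05, adjusted p = 3.5e-06). The groups did not overlap for either gene, both of them called on these same libraries. ESRRA, a nuclear receptor, gave 0.27 ± 0.09 (adjusted p = 0.015). Against vehicle, where 39.8% of tested genes were called, 6 fell and 2 rose, among them PPARGC1B (-0.70 ± 0.10, adjusted p = 1.6e-07) and ESRRA (0.54 ± 0.09, adjusted p = 1.7e-06).

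The RNAs that mitochondrial DNA encodes did not share one direction. Of its 13 mRNAs, 3 were lower in Menthae Herba at 500 against 20 µg/mL (MT-ND6, -0.63 ± 0.22, adjusted p = 0.0284; MT-ND3, -0.43 ± 0.15, adjusted p = 0.0194; MT-CYB, -0.32 ± 0.11, adjusted p = 0.0223), and all 13 estimates were negative. Both rRNAs were higher (MT-RNR1, 1.05 ± 0.11, adjusted p = 1.7e-10; MT-RNR2, 0.32 ± 0.10, adjusted p = 0.0169). The share of counts in the 13 mRNAs ran from 10.0 to 13% in vehicle, 9.36 to 11.2% at 20 µg/mL and 7.05 to 9.85% at 500 µg/mL. How far mRNA selection let these rRNAs through may differ between libraries, and its part in their values was not tested. For comparison, 0 of 80 tested cytosolic ribosomal protein genes were called at 500 against 20 µg/mL by edgeR, and 2 had an unadjusted p under 0.05. At least the 32.1% of tested genes called passed that looser threshold. Of 76 nuclear genes of the respiratory chain, 6 were called, 2 higher and 4 lower.

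Many of the genes share a promoter region with a neighbour. A protein-coding gene on the opposite strand began within 1000 bases, pointing away, for 17 of 78 (21.8%), compared with 7.32% of 19680 protein-coding genes. MRPL46 and MRPS11 start 34 bases from each other. Such neighbours did not always move with the mitoribosome gene. In Menthae Herba at 500 against 20 µg/mL, the sign was the same in 8 of the 17, with MRPL46 and MRPS11 counted from each side. Among the neighbours, 3 were called lower and 2 higher, where 32.1% of all tested genes were called. The largest change was in SKA3, which starts 43 bases from MRPL57 (-0.47 ± 0.07, adjusted p = 4.4e-07). TCP1, a chaperonin subunit that starts 63 bases from MRPL18, held 327.6, 324.5 and 312.8 CPM at 20 µg/mL and 280.6, 271.0 and 285.1 CPM at 500 µg/mL (-0.20 ± 0.04, adjusted p = 7.5e-05). NDUFS6, a complex I subunit that starts 34 bases from MRPL36, gave -0.25 ± 0.11 (adjusted p = 0.0699). HELQ, 76 bases from MRPS18C, gave 0.07 ± 0.10 (adjusted p = 0.653).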

How the data were processed

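RNA of 60 HepG2 libraries was sequenced as directional 100 bp paired-end mRNA libraries, per the labels' protocols. The authors deposited expected counts per gene, estimated by RSEM 1.3.3 after FastQC 0.11.9, Trim Galore 0.6.5 and STAR 2.7.3a with hg38, per the submitters' processing notes. No source used here states the annotation release or the strand setting. Of the nonzero values, 71.9% had no decimal part.

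Expected counts were rounded to whole numbers. The 57 replicated libraries, in 19 groups, were fitted together in edgeR 4.0.16 (R 4.3.3) with TMM scaling, filterByExpr (minimum count 10) and the robust quasi-likelihood test. The p-values were adjusted by Benjamini-Hochberg over 16644 genes, and 16 comparisons were made. CPM used TMM factors over all 60 libraries, whose totals ran from 20446542 to 32386486. Standard errors are on the log2 scale. On simulated data for Menthae Herba at 500 against 20 µg/mL (16644 genes), sets of 50 genes were changed. The test recovered 34% at 1.2-fold, 66% at 1.5-fold and 86% at 2-fold, with 6 false calls. Far fewer genes were changed there than the 5346 called in the data, and the adjustment depends on that number. These rates therefore do not give the power for the mitoribosome genes.

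The 78 genes, the other lists and the contrast of Menthae Herba with the other extracts were chosen with earlier results of these data known. Genes were named by rule: in each comparison the 3 called genes of largest change in each direction (5 for Menthae Herba), the 3 of highest and lowest level per length, and a list of genes of known function. Others, such as genes of lowest adjusted p where none was called, were chosen after their values were seen. Same-numbered replicates were checked for pairing: their deviations did not correlate above 0.1 in all 3 pairs of any comparison, so no block was used. Alternatives were RLE scaling, no filter, DESeq2 1.42.0, only the groups compared, a replicate block, the MALAT1 set as a term, and leaving out each library.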

Additional observations from a re-analysis of the deposited data

Results flagged for a closer look

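The response to dose differed between Menthae Herba and the mean of the other 5 extracts for 15 of the 78 genes. The difference itself was tested in edgeR with adjustment over all tested genes. Of all tested genes 23.9% differed, a larger share than among the 78, so the count does not exceed the background. Menthae Herba was picked for this contrast from earlier results of these data. On the log2 scale the difference was -0.38 for MRPS26, -0.37 for MRPL36, -0.36 for MRPL18, -0.34 for MRPL4, -0.31 for MRPL37 and MRPS2, -0.27 for MRPL11, MRPL20, MRPS18A and MRPS24, -0.26 for MRPL58 and MRPL32, -0.16 for MRPS18B and -0.14 for MRPL35. It was 0.40 for MRPS6, which overlaps SLC5A3. MRPS18B passed this test although its change within Menthae Herba did not (-0.11, adjusted p = 0.0795). With 1 Menthae Herba library left out, the call was lost for MRPS18A without replicate 3 at 20 µg/mL (adjusted p = 0.0501), for MRPL58 and MRPL20 without replicate 1 at 20 µg/mL (adjusted p = 0.0881 and 0.0524) or replicate 3 at 500 µg/mL (adjusted p = 0.0913 and 0.106), and for MRPL11 without any 1 of 4 libraries, replicates 1 and 3 at 20 µg/mL and 1 and 2 at 500 µg/mL (adjusted p = 0.0546 to 0.136). MRPS24 lay close to the threshold: its call was lost with a replicate block (adjusted p = 0.0511) and without single libraries of Menthae Herba and of each other extract, at most without Menthae Herba 20 replicate 3 (-0.23, adjusted p = 0.16). MRPS18B lost its call with no filter (-0.15, adjusted p = 0.136) and without Menthae Herba 500 replicate 1 (adjusted p = 0.0589) or 3 (adjusted p = 0.0608) or Menthae Herba 20 replicate 3 (-0.11, adjusted p = 0.147). MRPL32 (adjusted p = 0.0323) lost its call without replicate 1 or 2 at 20 µg/mL or replicate 1 or 3 at 500 µg/mL of Menthae Herba (adjusted p = 0.0554 to 0.114). MRPL35 (adjusted p = 0.0465) gave -0.06 (adjusted p = 0.473) without Menthae Herba 20 replicate 2, and its call was also lost with no filter (adjusted p = 0.289) and without single libraries of each extract.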

How the results depend on the processing

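Of 54 named changes, none reversed in 1058 refits; 939 refits kept the call and 119 lost it, 98 of them on leaving out a library. Counts of genes called held within 1.5 times the reported count except as follows. In Guibi-tang at 500 against 20 µg/mL the MALAT1 set as a term gave 1 call, and in Soyo-san no filter gave 1 and only the groups compared gave 1. Against vehicle, Saposhnikoviae Radix gave 5 with no filter, 2 with DESeq2, 0 with only the groups compared and 3 with the MALAT1 set. Saengmaek-san gave 0 with only the groups compared and 9 with the MALAT1 set. Guibi-tang gave 6 with no filter, 5 with only the groups compared and 5 with the MALAT1 set. Okbyeongpung-san gave 13 with no filter, 8 with DESeq2, 10 with only the groups compared and 10 with the MALAT1 set. The mean of 6 extracts at 500 µg/mL gave 14 with no filter, 14 with DESeq2 and 15 with the MALAT1 set. The cause was not tested.

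With 1 library left out, Menthae Herba gave 10 to 18 calls against 20 µg/mL, 16 to 24 against vehicle and 9 to 22 for its difference from the other extracts, each lowest without Menthae Herba 500 replicate 3; the highest of the last was without Saengmaek-san 500 replicate 1. Guibi-tang at 500 against 20 µg/mL gave 0 to 1, the 1 without Guibi-tang 500 replicate 1. Against vehicle, Saposhnikoviae Radix gave 0 to 2, with 0 without vehicle replicate 1 and 2 without vehicle replicate 2 or 3 or its own replicate 1 or 2. Saengmaek-san gave 1 to 6, with 1 without its replicate 1 and 3 without vehicle replicate 3. Guibi-tang gave 1 to 4, with 1 without vehicle replicate 3. Soyo-san gave 4 to 7, with 4 without vehicle replicate 2 or its replicate 1 and 5 without its replicate 2 or 3. Okbyeongpung-san gave 1 to 5, with 1 without its replicate 2 and 2 without its replicate 3. The mean of 6 extracts gave 2 to 9 at 20 µg/mL, 4 to 11 at 100 µg/mL and 6 to 13 at 500 µg/mL, each lowest without vehicle replicate 1; 3 and 5 came without vehicle replicate 3 at 20 µg/mL and replicate 2 at 100 µg/mL, and 13 without Saposhnikoviae Radix 500 replicate 2.

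A replicate block gave 18 calls for Menthae Herba against 20 µg/mL, 24 against vehicle and 15 for the difference, and changed none of the 54 named calls, though MRPS24 lost its call for the difference. Deviations of same-numbered replicates correlated at 0.047, -0.051 and -0.064 in Menthae Herba at 500 against 20 µg/mL. For the same doses they correlated at 0.044, 0.073 and 0.334 in Saengmaek-san and at 0.282, -0.123 and 0.2 in Guibi-tang. Such a check cannot settle whether the numbers pair the samples.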
